A study of Mus musculus with 21 samples.

Results

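The 10 genes described here are NK cell and cytotoxic genes: Gzma, Gzmb, Prf1, Nkg7, Ncr1, Klrb1c, Klrk1, Klrd1, Il2rb and Eomes. They were chosen by symbol, and all 10 were among the 23420 gene symbols of the count table. RNA was measured in 21 libraries of inflammatory monocytes (IMs) sorted from mice, to compare IMs of healthy mice with tumor inflammatory monocytes (TIMs) in models of lung squamous carcinoma. Healthy mice gave bone marrow (BM) IMs, with 3 libraries from the FVB strain and 3 from the DBA2 strain. LN2E1 (KAL-LN2-E1), a metastatic line passaged in mice from the KAL squamous line, was implanted in the lung of FVB mice at 500000 cells per mouse, and gave 5 libraries of TIMs from primary lung tumors and 5 from lymph node metastases. LN4K1, a line derived from KLN-205, was given to DBA2 mice through a vein at 300000 cells per mouse, and gave 5 libraries of TIMs from the lungs that then carried tumors. The sort kept live CD45+ CD11b+ Ly6C-high cells without Siglec-F or Ly6G, and its antibody panel held no NK cell or T cell marker. The paper gives isolation by a kit that enriches monocytes, by sorting or by both, and its sample gating followed the kit. Host strain, cell line and route of injection changed together between the models, and tissue changed together with tumor bearing, so these cannot be told apart. The study calls its replicates technical, so the p values below may measure only the spread between libraries.

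NK cells are innate lymphocytes that kill tumor and infected cells by releasing granules of perforin and granzymes onto them. Whether an NK cell fires depends on the balance between activating receptors such as NKG2D and NKp46 and inhibitory receptors such as CD94 paired with NKG2A, and interleukin-15 read through the IL-2 receptor beta chain keeps the cell alive. Several of these genes are not restricted to NK cells: T cells carry most of them, and some myeloid cells are known to carry some. NK cells can also carry CD11b and Ly6C, the proteins used in this sort.

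The members lie on several chromosomes of GRCm38 (mm10), and each is annotated as protein coding. The lectin-like receptors share the NK gene complex of chromosome 6: Klrb1c at chr6:128778485-128789215, Klrd1 at chr6:129591782-129598775 and Klrk1 at chr6:129610323-129623864. Nkg7 at chr7:43437073-43438249 and Ncr1 at chr7:4337724-4345164 share chromosome 7. Gzma is at chr13:113093825-113100981, Gzmb at chr14:56258838-56262260, Prf1 at chr10:61297833-61304680, Il2rb at chr15:78479256-78495271 and Eomes at chr9:118478212-118486132. The counts are of reads on annotated exons of the whole gene.

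RefSeq held promoter sequence for 8 of the 10 members; Klrd1 and Il2rb had no entry. The 250 bases before the start were searched on both strands for the RUNX core TGTGGT, since RUNX factors are known regulators of NK genes, and 7 of the 8 windows held it, all but that of Eomes. Of 27025 gene windows of that length, 14.2% held it. The T-box core GGTGTG, the kind of site read by Eomes, was in 1 of the 8 windows, that of Nkg7, against 16.2% of all windows. The ETS core AGGAAG was in 3 of the 8 windows against 29.2% of all windows. The RUNX and T-box cores can overlap by letters they share, but no matches did so in these windows. A match is only a run of letters, and no binding was measured. The windows of Gzma, Prf1, Ncr1 and Klrk1 are given 5′ to 3′ on the strand of the gene, with the RUNX core or its reverse complement in capitals; the first 3 are members that were at 0 in FVB BM replicate 3 and all DBA2 BM libraries and above 3 counts in every LN4K1 lung library, and the last is the member above 3 counts in every library.
Gzma, chr13:113100982-113101231, minus strand: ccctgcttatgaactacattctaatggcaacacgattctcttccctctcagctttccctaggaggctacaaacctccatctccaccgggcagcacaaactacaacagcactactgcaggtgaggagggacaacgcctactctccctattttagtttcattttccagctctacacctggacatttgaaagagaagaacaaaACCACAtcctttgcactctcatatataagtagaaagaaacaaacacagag
Prf1, chr10:61297586-61297835, plus strand: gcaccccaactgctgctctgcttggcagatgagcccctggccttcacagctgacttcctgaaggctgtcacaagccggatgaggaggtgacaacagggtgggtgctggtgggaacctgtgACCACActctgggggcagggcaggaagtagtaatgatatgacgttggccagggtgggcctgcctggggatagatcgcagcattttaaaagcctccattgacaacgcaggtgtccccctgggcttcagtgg
Ncr1, chr7:4337465-4337714, plus strand: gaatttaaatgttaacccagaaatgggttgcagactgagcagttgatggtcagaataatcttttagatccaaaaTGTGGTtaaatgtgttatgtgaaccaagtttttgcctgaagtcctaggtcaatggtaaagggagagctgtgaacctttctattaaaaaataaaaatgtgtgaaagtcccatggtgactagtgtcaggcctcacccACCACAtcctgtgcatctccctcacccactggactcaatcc
Klrk1, chr6:129623865-129624114, minus strand: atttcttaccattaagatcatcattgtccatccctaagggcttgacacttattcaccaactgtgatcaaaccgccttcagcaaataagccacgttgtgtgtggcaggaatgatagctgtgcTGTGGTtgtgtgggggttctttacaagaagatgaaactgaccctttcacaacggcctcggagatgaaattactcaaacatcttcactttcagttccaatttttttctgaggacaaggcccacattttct

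The libraries were deep and close in size, with 80772922 to 101043568 counts each, so that 3 counts, the floor used here for a level that can be told from 0, came to 0.0297 to 0.0371 CPM. CPM are counts scaled to library size by the TMM method, while this range of the floor was taken from raw library totals. The floor covers counting error only. Summed CPM of the 7 monocyte and sort markers (Ptprc, Itgam, Ly6c1, Ly6c2, Ccr2, Csf1r and Lyz2) was 38137 or more in every library. Lymph node replicate 1 stood apart: its basophil and mast cell list summed to 463.9 CPM against 3.94 to 16.2 CPM in the other 4 lymph node libraries. LN4K1 replicate 3 also stood apart from its group, and calls of the members that changed without either library are given beside the results. FVB BM replicate 3 matters most for these genes, since 6 of the 10 members were at 0 in it and none was at 0 in the other FVB BM libraries.

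Klrk1 was the only member above 3 counts in all 21 libraries, and Nkg7 and Gzmb were above 3 counts in 20 and 18. At the other end Eomes was above 3 counts in 8 libraries, Prf1 in 11 and Gzma in 11. Per kilobase of exon, Klrk1 had the highest mean level of the members in 4 of the 5 groups, from 8.04 ± 2.64 CPM per kilobase (SD, n = 3) in DBA2 BM IMs to 48.4 ± 6.45 (SD, n = 5) in lymph node TIMs. In FVB BM IMs Nkg7 was highest, at 25.2 ± 2.79 CPM per kilobase (SD, n = 3), against 2.15 ± 0.896 for Klrk1. In DBA2 BM IMs 7 of the 10 members were at 0 in all 3 libraries, and only Klrk1, Nkg7 and, in a single library, Gzmb were counted. A count of 0 there allows a level of up to the floor of 3 counts. In bulk RNA, fewer cells of a type and less RNA per cell cannot be told apart.

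**Figure D1:**
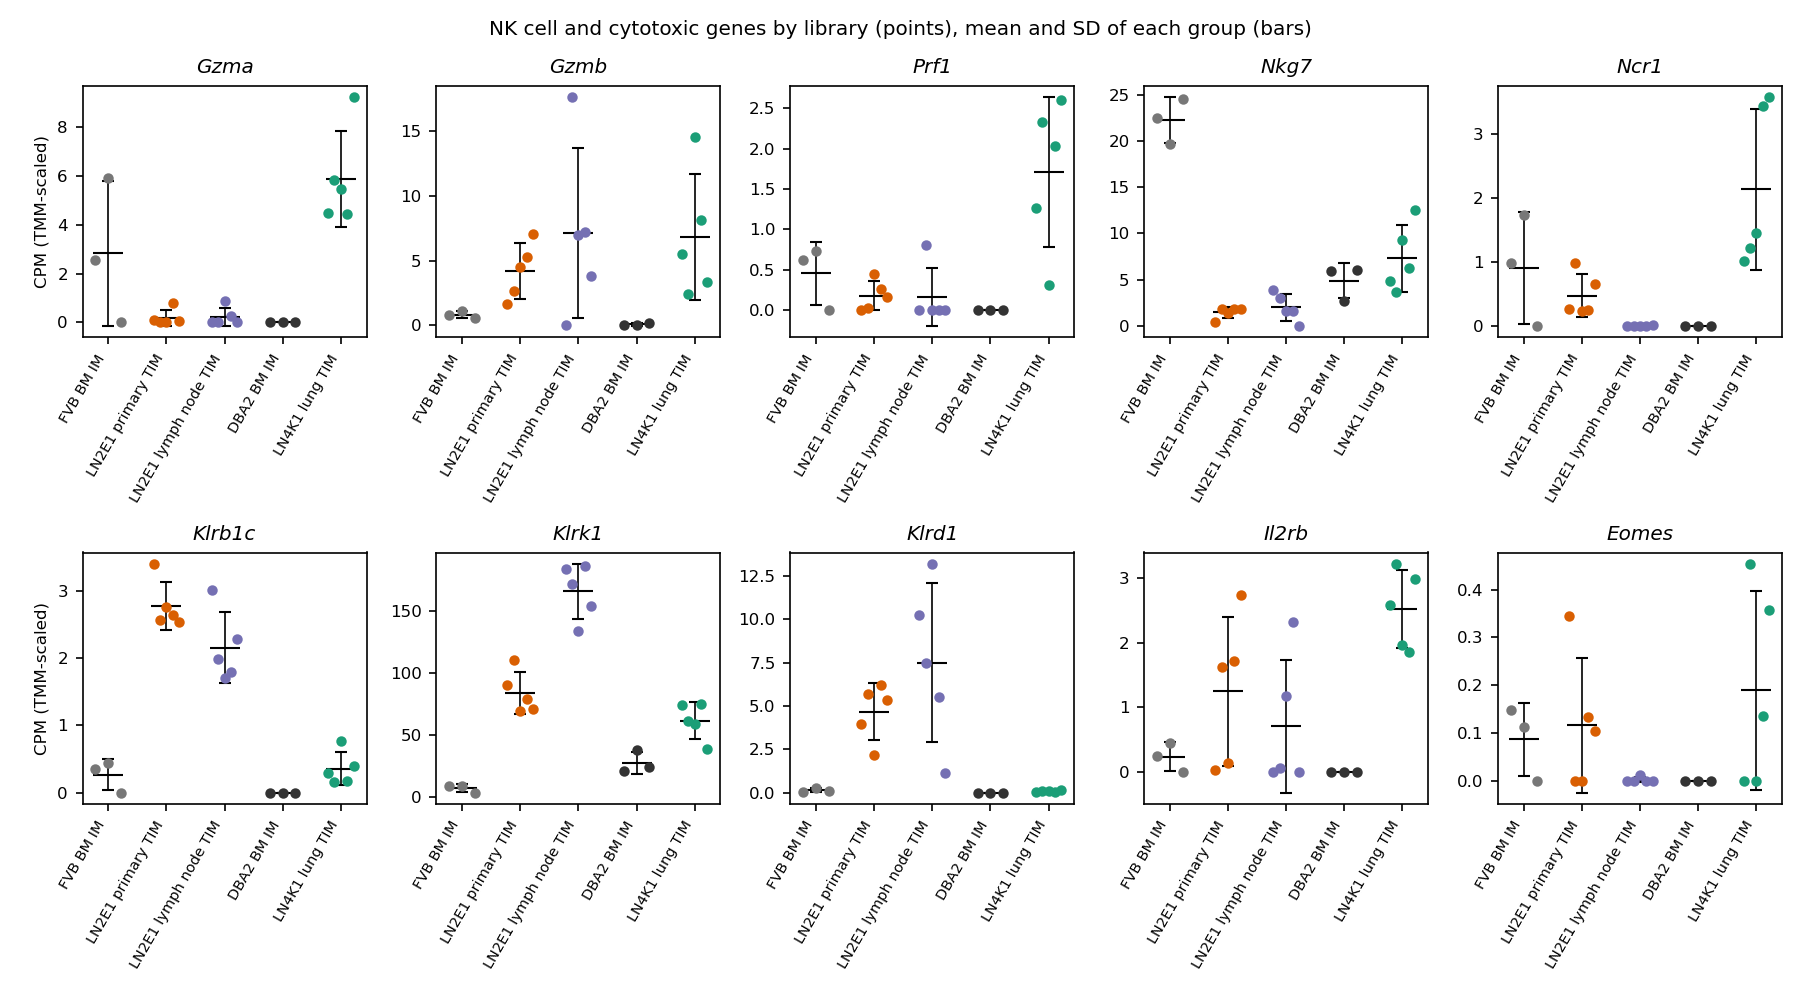
Level of each of the 10 members in TMM-scaled CPM (vertical axis, a scale of its own in each panel) in every library, by group; points are libraries, and bars are the mean and SD of 3 or 5 libraries. Klrk1 was highest in the 5 lymph node TIM libraries, Nkg7 in the 3 FVB BM IM libraries, Klrd1 and Klrb1c were high in LN2E1 TIMs, and Gzma, Prf1, Ncr1 and Il2rb had their highest group means in LN4K1 lung TIMs.

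Klrk1 encodes NKG2D, the activating receptor for stress ligands that tumor cells show. Its counts were 815, 887 and 428 in the FVB BM libraries and 2032, 3802 and 2277 in the DBA2 BM libraries. In TIMs they were 6422, 5802, 4393, 7260 and 3513 in LN4K1 lungs, 8430, 9780, 6005, 7157 and 6126 in LN2E1 primary tumors and 15201, 12975, 11265, 15133 and 12961 in lymph nodes. The groups thus stood in the order lymph node, primary tumor, LN4K1 lung, DBA2 BM and FVB BM, and only primary tumor and LN4K1 lung TIMs overlapped among neighbours in CPM, at 69.8 to 110.6 and 39.2 to 75.1. The adaptors that NKG2D signals through, Hcst (DAP10) and Tyrobp (DAP12), were chosen here after their values were seen: they had 1864 to 6976 and 133347 to 276093 counts over the 21 libraries, so that both were present wherever Klrk1 was.

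Klrd1 encodes CD94, which joins an NKG2 protein to read the nonclassical class I molecule Qa-1. It had 5, 28 and 9 counts in FVB BM IMs, 0 in all DBA2 BM IMs and 3, 6, 6, 3 and 15 in LN4K1 lung TIMs. In LN2E1 TIMs it had 367, 501, 186, 563 and 459 counts in primary tumors and 846, 563, 1111, 446 and 94 in lymph nodes, all above every library of the other groups. The DBA/2J substrain is known to lack CD94 through a deletion in Klrd1. The paper names The Jackson Laboratory as the source of its DBA2 mice but gives no substrain. Whether these DBA2 mice carry the deletion was not tested. The partners Klrc1 (NKG2A) and Klrc2 (NKG2C), chosen after their values were seen, had only 0 to 75 and 0 to 43 counts in the 10 LN2E1 TIM libraries.

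Klrd1 moved with a gene of another cell type. In LN2E1 TIMs its counts spanned 11.8-fold between libraries, but per 1000 counts of Siglech, the defining receptor of plasmacytoid dendritic cells, they spanned 2.06-fold, from 27.6 to 57.1 over 10 libraries. The lymph node library with the fewest Siglech counts, 3123 in replicate 5, also had the fewest Klrd1 counts, and the one with the most, 40184 in replicate 3, had the most. In LN4K1 lung TIMs Siglech had 321 to 4965 counts and Klrd1 1.42 to 18.7 per 1000 of them, so the pairing was not seen there. Klrd1 had only 3 to 15 counts in those libraries, and DBA2 mice that carry the deletion could not show the pairing. In FVB BM IMs, with 30 to 129 counts of Siglech, Klrd1 stood at another level, 150 to 217 per 1000. All 5 plasmacytoid dendritic cell markers (Siglech, Ccr9, Ly6d, Tcf4 and Klk1) were counted in every LN2E1 TIM library, and their summed level was 242 to 523 CPM in primary tumors and 162 to 1345 CPM in lymph nodes against 25.8 to 33.2 CPM in FVB BM IMs. The part of these cells in the Klrd1 counts was not tested.

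Klrb1c encodes the lectin-like receptor NKR-P1C, which carries the NK1.1 epitope in some strains. It had 31, 43 and 0 counts in FVB BM IMs, 0 in DBA2 BM IMs and 25, 15, 57, 17 and 35 in LN4K1 lung TIMs. In LN2E1 TIMs it had 316, 227, 238, 239 and 219 counts in primary tumors and 249, 150, 144, 146 and 192 in lymph nodes. Here too every LN2E1 TIM library lay above every other library, but the spread within the groups was small and the order of the libraries was not that of Klrd1. Instead Klrb1c followed its neighbour Klrb1b, an inhibitory member of the same family, within LN2E1 TIMs. It stood at 205 to 291 counts per 1000 Klrb1b counts in the 10 LN2E1 TIM libraries. That is a 1.42-fold span, against 2.19-fold for its counts alone. In LN4K1 lung TIMs it stood at 357 to 1842, and in FVB BM replicates 1 and 2 at 1348 and 10750.

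Klrb1c has stretches of sequence in common with its paralogs. The coding sequence of Klrb1c matched Klrb1b at 85.95% of 669 aligned bases, with a longest identical run of 75 bases, and Klrb1a at 92.55%, with a run of 108. Of the 2629 stretches of 50 bases in Klrb1c transcripts, 478 (18.2%) were also in transcripts of other genes, 371 of them in Gm44511, which overlaps Klrb1c on the same strand, 75 in Klrb1a and 74 in Klrb1b. Reads from these stretches cannot be assigned to Klrb1c with certainty, and how many of its counts they make up was not tested. A stretch of 120 coding bases is given from both genes, with the 5 bases that differ in capitals; it starts at coding base 516 of Klrb1c and 372 of Klrb1b.
Klrb1c: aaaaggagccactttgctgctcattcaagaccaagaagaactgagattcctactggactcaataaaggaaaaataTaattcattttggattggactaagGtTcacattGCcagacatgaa
Klrb1b: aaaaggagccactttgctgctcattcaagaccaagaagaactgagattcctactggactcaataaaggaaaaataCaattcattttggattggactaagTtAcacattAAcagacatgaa
Of the other members, Eomes shared 2.36% of its stretches of 50 bases with other genes and the remaining 8 shared none. Exons of Eomes also overlap Gm33460 on the opposite strand, and since the libraries did not keep strand, the 2 cannot be told apart there.

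**Figure D2:**
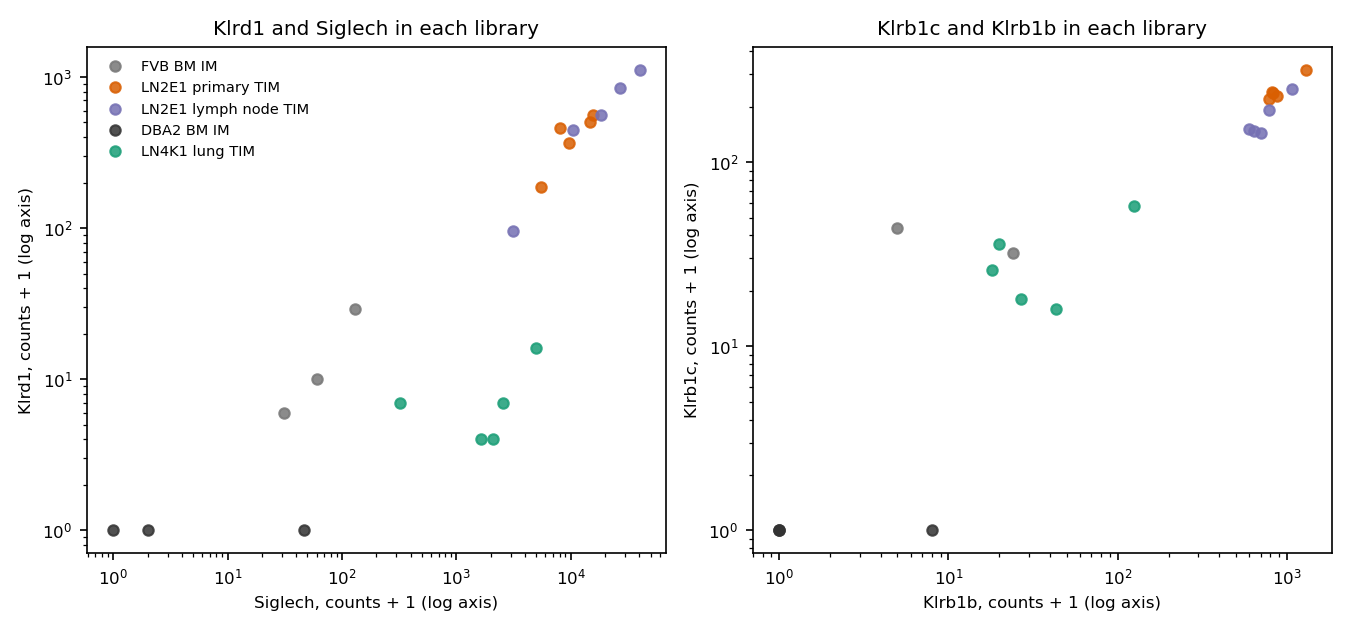
Counts plus 1 of Klrd1 against Siglech (left) and of Klrb1c against Klrb1b (right), both axes logarithmic, with 1 point for each of the 21 libraries coloured by group. The 10 LN2E1 TIM libraries run along a line in each panel, with Klrd1 from 94 to 1111 counts and Klrb1c from 144 to 316 counts, and the LN4K1 lung TIM libraries lie apart from it.

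Ncr1 encodes NKp46, the receptor most used to define mouse NK cells. It had 86, 170 and 0 counts in FVB BM IMs, 0 in all DBA2 BM IMs and 87, 115, 107, 332 and 320 in LN4K1 lung TIMs. It had 24, 87, 20, 22 and 56 counts in primary tumor TIMs and 0, 0, 0, 0 and 1 in lymph node TIMs. Thus Ncr1 was above the floor in every LN4K1 lung and primary tumor library and in no lymph node library.

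Il2rb, the receptor chain that reads interleukin-2 and interleukin-15, had 22, 44 and 0 counts in FVB BM IMs and 0 in DBA2 BM IMs. It had 223, 305, 145, 179 and 268 counts in LN4K1 lung TIMs, where every library lay above both BM groups. In LN2E1 TIMs it varied from library to library, with 2, 144, 12, 155 and 235 counts in primary tumors and 0, 4, 99, 188 and 0 in lymph nodes.

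Gzma, a tryptase-like granzyme, had 224, 582 and 0 counts in FVB BM IMs, 0 in DBA2 BM IMs and 386, 553, 405, 428 and 827 in LN4K1 lung TIMs. It had 9, 0, 0, 70 and 3 counts in primary tumor TIMs and 0, 0, 73, 22 and 0 in lymph node TIMs. Prf1, perforin, which forms the pore through which granzymes enter, had 55, 72 and 0 counts in FVB BM IMs, 0 in DBA2 BM IMs and 109, 221, 23, 197 and 233 in LN4K1 lung TIMs. It had 0, 2, 38, 23 and 14 counts in primary tumor TIMs, and in lymph nodes 61 counts in replicate 2 and 0 in the other 4. Both killing genes were thus present in 2 of 3 FVB BM libraries and all LN4K1 lung libraries, and scattered in LN2E1 TIMs.

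Gzmb, the granzyme that starts apoptosis by cleaving caspases, had a pattern of its own. It had 67, 109 and 67 counts in FVB BM IMs, where Gzma ranged from 0 to 582, and 0, 0 and 20 in DBA2 BM IMs. It had 474, 227, 1077, 782 and 302 counts in LN4K1 lung TIMs, 151, 231, 390, 474 and 604 in primary tumor TIMs and 1, 1327, 588, 582 and 318 in lymph node TIMs. All TIM libraries but lymph node replicate 1 lay above every BM library.

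Nkg7, a membrane protein of cytotoxic granules, was highest in FVB BM IMs and lowest in LN2E1 TIMs. It had 1979, 1930 and 2749 counts in FVB BM IMs, 583, 271 and 572 in DBA2 BM IMs and 417, 343, 689, 607 and 1127 in LN4K1 lung TIMs. In LN2E1 TIMs it had 43, 160, 123, 164 and 154 counts in primary tumors and 317, 228, 139, 130 and 0 in lymph nodes. It did not follow the other granule genes: FVB BM replicate 3, at 0 for Gzma and Prf1, had the most Nkg7.

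Eomes, the T-box factor of mature NK cells, was the least counted member. It had 13, 11 and 0 counts in FVB BM IMs, 0, 43, 0, 13 and 32 in LN4K1 lung TIMs and 32, 0, 0, 12 and 9 in primary tumor TIMs. It was at 0 in DBA2 BM IMs and at 0 to 1 in lymph node TIMs.

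Gzma, Prf1, Ncr1, Il2rb and Eomes were sparse together, a grouping made after their values were seen. All 5 were above 3 counts in FVB BM replicates 1 and 2 and none in FVB BM replicate 3 or in any DBA2 BM library. In LN4K1 lung TIMs 4 or 5 of them were above 3 counts in every library, in primary tumor TIMs 2 to 5, and in lymph node TIMs 0 to 2.

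The first comparison set primary tumor TIMs against FVB BM IMs, and asked how IMs in an established lung tumor differ from those of healthy marrow. All 10 members could be tested; Klrd1, Klrk1, Klrb1c and Gzmb rose and Nkg7 fell, so 5 of 10 changed beside 61.9% of all genes tested, of which 33.3% were higher and 28.6% lower. Klrd1 rose by 5.02 ± 0.64 on the log2 scale (SE, edgeR quasi-likelihood adjusted p = 0.000117), from 0.141 ± 0.126 CPM (SD, n = 3) to 4.67 ± 1.63 (SD, n = 5). Klrk1 rose 11.3-fold (edgeR adjusted p = 1.37e-05) from 7.37 ± 3.08 to 84.3 ± 16.9 CPM. Klrb1c rose 10.5-fold (edgeR adjusted p = 0.0105) and Gzmb 5.04-fold (edgeR adjusted p = 0.00289), the latter from 0.824 ± 0.262 to 4.21 ± 2.14 CPM. The call of Gzmb was lost when all 5 groups were fitted together (edgeR adjusted p = 0.116).

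Nkg7 was 15.5-fold lower in primary tumor TIMs (edgeR adjusted p = 1.8e-05), at 1.46 ± 0.581 against 22.2 ± 2.46 CPM. Gzma had a log2 fold change of -3.96 ± 1.76 and missed the threshold (edgeR adjusted p = 0.0771), and without FVB BM replicate 3 it passed (edgeR adjusted p = 0.036). Prf1, Ncr1, Il2rb and Eomes had edgeR adjusted p values from 0.197 to 0.832. Their ranges overlapped between the groups. DEGs are genes past an adjusted p under 0.0001 and a log2 fold change beyond 1, thresholds that the study set on shrunken DESeq2 values. By edgeR Klrk1 and Nkg7 were DEGs, beside 12.9% of all genes tested, and 1 of them without FVB BM replicate 1; by DESeq2, shrunken or not, 5 members were. The median log2 fold change of the 10 members was 1.38, and that of all genes 0.08.

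Other NK receptors were mixed in this comparison: of 19 tested of 29 on the list, 7 rose and 2 fell. Klrb1b rose by 6.73 ± 0.83 on the log2 scale (edgeR adjusted p = 0.000107) and Tigit, an inhibitory receptor, by 5.15 ± 1.0, and Klrb1f fell by 4.48 ± 0.27 and Cd160 by 1.86 ± 0.63. FVB BM libraries had at most 3 counts of Tigit, so its size rests on the prior count. Of 9 tested of 16 other granule and effector genes 6 rose and none fell, among them the chemokine Ccl5 (log2 fold change 4.13 ± 0.80) and Gzmc (7.30 ± 2.07). Gzmc had at most 1 count in the FVB BM libraries, so its size too rests on the prior count. Of the granule release machinery, 2 of 7 tested rose and 2 fell: Stx11 and Ap3b1 rose by 0.63 ± 0.09 and 0.28 ± 0.09, while Lyst and Vamp8 fell by 1.60 ± 0.18 and 0.25 ± 0.10. Of the receptor adaptors and kinases 9 of 14 rose and none fell, led by Fyn (3.08 ± 0.14) and Jak3 (3.00 ± 0.19). Of the NK transcription factors 3 of 5 rose, with Ets1 (2.69 ± 0.25) and Nfil3 (1.63 ± 0.12) furthest; both are used by many leukocytes. Of the ligands and cytokines that NK cells read, 11 of 16 rose and 1, Cd48, fell, and Pvr, the ligand of Tigit, rose by 2.64 ± 0.15. Of the 4 granzyme inhibitors 2 rose, Serpinb6b by 5.80 ± 0.95 and Serpinb9, which blocks granzyme B, by 2.87 ± 0.20.

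Lymph node TIMs against FVB BM IMs asked the same of metastatic nodes, with the same 3 FVB BM libraries as controls. Klrk1 and Klrd1 rose and Nkg7 fell, so 3 of the 8 members tested changed, beside 37.4% of all genes, with 20.2% higher and 17.2% lower. Klrk1 rose 22.6-fold (edgeR adjusted p = 4.97e-06), to 166 ± 22.1 CPM (SD, n = 5), and it was the only member that was a DEG by edgeR, beside 5.71% of all genes, against 2 members by DESeq2. Klrd1 rose by 5.73 ± 1.0 on the log2 scale (edgeR adjusted p = 0.00155), to 7.50 ± 4.6 CPM. Nkg7 was 11-fold lower (edgeR adjusted p = 0.0224), at 2.02 ± 1.48 CPM, and this call was lost without any 1 of the 3 FVB BM libraries or without lymph node replicate 3 or 4 (edgeR adjusted p from 0.0528 to 0.0608).

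Gzmb had a log2 fold change of 3.11 ± 1.35 and missed the threshold in lymph nodes (edgeR adjusted p = 0.0999). Without lymph node replicate 1, where it had 1 count, its log2 fold change was 3.43 and it passed (edgeR adjusted p = 0.00111), so that 4 members then changed. Klrb1c had a log2 fold change of 3.04 ± 1.28 (edgeR adjusted p = 0.0907), although all 5 lymph node libraries lay above the 3 FVB BM libraries (two-sided exact permutation p = 0.0357, the smallest that 5 against 3 allows). With DESeq2 in place of edgeR 6 members changed, with Gzmb, Klrb1c and Ncr1 added. Ncr1 and Eomes did not pass the filter on low counts. Against the floor of 3 counts in each library, Ncr1 was at least 24.5-fold lower in lymph node TIMs than the FVB BM mean of 0.903 ± 0.868 CPM, but FVB BM replicate 3 was also at 0 and the two-sided exact permutation p was 0.214. The median log2 fold change of the 8 members tested was 2.33, and that of all genes -0.04.

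Among the other lists, 6 of 15 NK receptors tested rose and 1 fell, with Klrb1b (6.54 ± 1.14) and Cd244, the 2B4 receptor that myeloid cells also carry (3.87 ± 0.23), up and Klrb1f down (-5.69 ± 0.37). Ccl5 (3.69 ± 0.81) and Tnfsf10, the death ligand TRAIL (3.48 ± 0.70), led the 4 of 6 granule and effector genes that rose. In the granule release machinery Stx11 rose by 0.80 ± 0.15 and Lyst fell by 2.17 ± 0.25, and the other 5 of 7 did not pass. Of the adaptors and kinases 6 of 13 rose, again led by Fyn (3.82 ± 0.20) and Jak3 (2.88 ± 0.23), and of the transcription factors 3 of 5 rose, with Ets1 at 3.47 ± 0.43 and Nfil3 at 1.61 ± 0.11. Of the ligands and cytokines 5 of 16 rose, Pvr by 2.91 ± 0.33 and Il18 by 2.73 ± 0.20, and none of the 4 granzyme inhibitors passed by edgeR (0 at an unadjusted p under 0.05, 1 by DESeq2). That count rests on lymph node replicate 1, where Serpinb9 had 1 count against 915 to 1294 in the other 4 libraries; without it Serpinb9 and Serpinb6b rose, 2 of 4.

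LN4K1 lung TIMs against DBA2 BM IMs gave the broadest rise. Of the 9 members tested, 7 rose and none fell: Gzma, Il2rb, Ncr1, Prf1, Klrb1c, Gzmb and Klrk1. Over all genes tested 24.9% changed and 13.9% were higher. Gzma (edgeR adjusted p = 2.55e-05) stood at 5.89 ± 1.96 CPM (SD, n = 5), at least 191-fold above DBA2 BM IMs, which were at 0 in all 3 libraries and enter the bound at the floor of 3 counts per library. On the same footing Il2rb (edgeR adjusted p = 7.55e-05) was at least 81.8-fold, Ncr1 (0.000613) at least 69.3-fold, Prf1 (0.00152) at least 55.5-fold and Klrb1c (0.00818) at least 11.6-fold higher. Their fitted log2 fold changes, 8.00 to 12.04, rest on the prior count and are not bounds.

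Gzmb rose 90.5-fold over a group with 20 counts in a single library (edgeR adjusted p = 0.00614), and without that library, DBA2 BM replicate 3, its log2 fold change went from 6.50 to 12.25. The 12.25 rests on the prior count, since the other DBA2 BM libraries were at 0. Klrk1 rose 2.13-fold (edgeR adjusted p = 0.0162), from 27.6 ± 9.08 to 61.9 ± 14.6 CPM, and lost the call without DBA2 BM replicate 1 or 3 (edgeR adjusted p = 0.0722 and 0.078). Nkg7 did not pass (log2 fold change 0.49 ± 0.44, edgeR adjusted p = 0.46). Eomes did not pass (edgeR adjusted p = 0.1), and without LN4K1 replicate 3 it did (0.0377), so that 8 members then rose. Klrd1 did not pass the filter. Its 3 to 15 counts were all higher than the 0 of DBA2 BM IMs (two-sided exact permutation p = 0.0357). Only 3 of the 5 LN4K1 libraries were above the floor of 3 counts, so this separation rests in part on counts at the floor. The LN4K1 mean was at least 2.45-fold above DBA2 BM IMs set at that floor. By edgeR Gzma and Il2rb were DEGs, beside 2.97% of all genes. No member was a DEG without any 1 of the 3 DBA2 BM libraries, without LN4K1 replicate 1, 2 or 4 or with all 5 groups in 1 fit, 1 was without LN4K1 replicate 5, and 6 were by DESeq2. The median log2 fold change of the 9 members was 8.00 as fitted, against 0.03 for all genes; with a filter of 10 counts in every library only Nkg7 and Klrk1 could be tested and only Klrk1 changed.

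The other lists moved in part in this comparison. Of 20 NK receptors tested 10 rose and 1 fell: Klrg1, a receptor of mature NK cells with 22 to 76 counts, and Klrc1, with 13 to 72 counts, rose from 0 in all DBA2 BM libraries (edgeR adjusted p = 0.00355 and 0.00567), and Klrb1f fell by 2.01 ± 0.16 on the log2 scale. Of 10 granule and effector genes 5 rose, with the death ligand Fasl (edgeR adjusted p = 0.00212) and the NK protease Ctsw (0.00682) furthest. Of 14 adaptors and kinases 8 rose, led by the lymphocyte kinases Lck (edgeR adjusted p = 0.000191) and Txk (0.0242). Tbx21, the T-box factor T-bet, rose from 0 in DBA2 BM IMs to 1 to 91 counts (edgeR adjusted p = 0.0193), and with Nfil3 made up the 2 of 5 transcription factors that rose. In the granule release machinery only Lyst passed, falling by 1.26 ± 0.19, while without LN4K1 replicate 3 Stx11 rose and Lyst, Ap3b1 and Unc13d fell. Of 13 ligands and cytokines 4 rose and Ulbp1, a ligand of NKG2D, fell by 5.51 ± 1.21, from 324 to 368 counts to 0 to 20, and of the 4 granzyme inhibitors Serpinb6b and Serpinb9 rose.

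**Figure D3:**
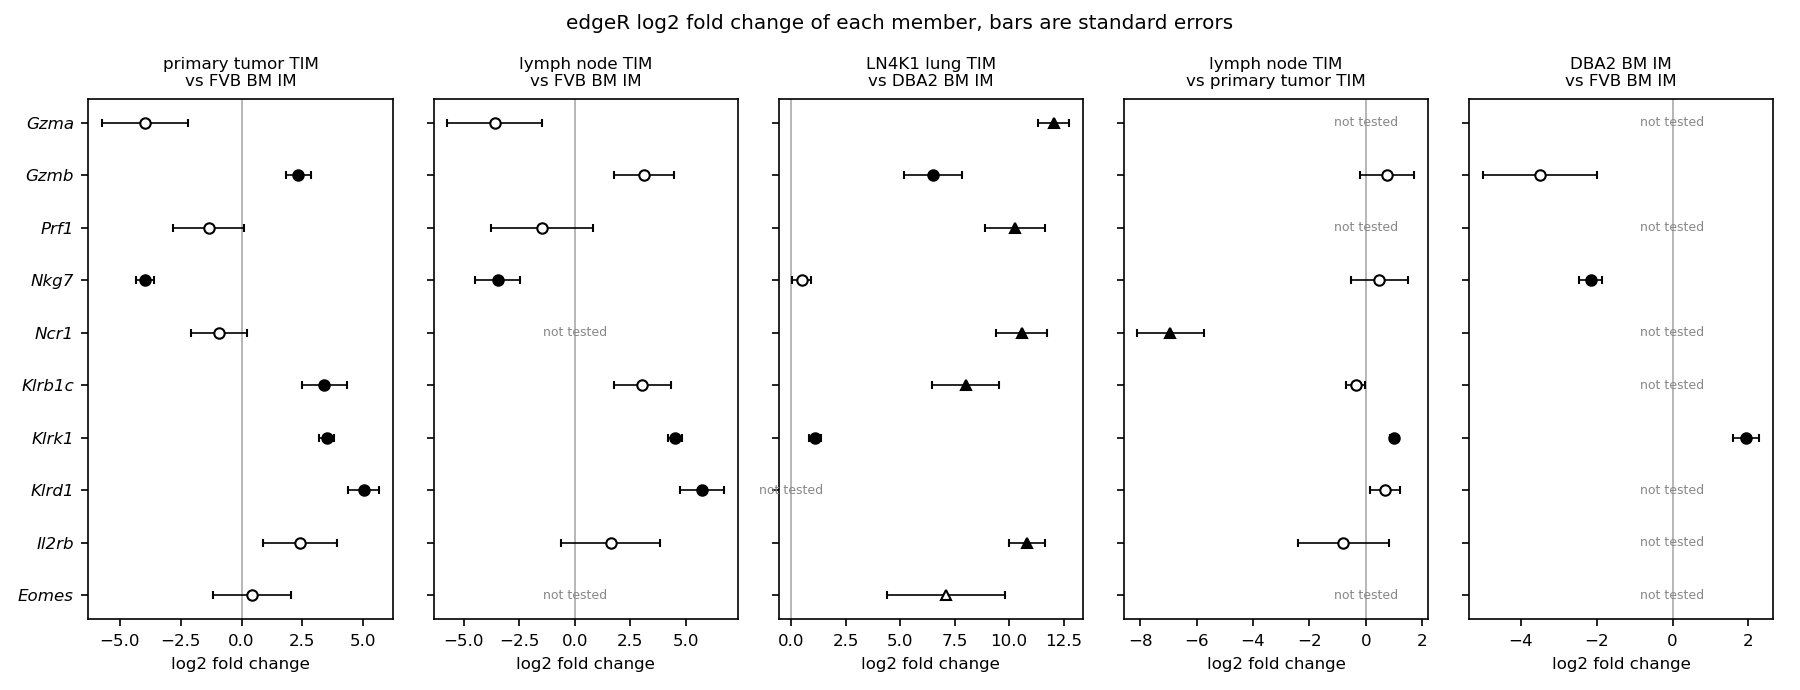
Log2 fold change with its SE (horizontal axis, a scale of its own in each panel) of each member in 5 comparisons by edgeR. Filled symbols passed an adjusted p of 0.05 and triangles mark a comparison in which all libraries of 1 group had 3 counts or fewer, so that the size depends on the prior count; Klrk1 is filled and above 0 in every panel and Nkg7 is filled and below 0 in 3 of them.

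Lymph node and primary tumor TIMs of the LN2E1 model differed in Klrk1 and Ncr1: 2 of the 7 members tested changed, beside 11.7% of all genes, with 6.15% higher and 5.55% lower. Klrk1 was 1.98-fold higher in lymph nodes (edgeR adjusted p = 0.00219), with no overlap between the 5 and 5 libraries. Ncr1 was lower in lymph nodes (edgeR adjusted p = 0.00397), by at least 12.9-fold with the lymph node libraries at the floor of 3 counts. Both calls stood in all 10 fits that left out a library, with log2 fold changes of 0.92 to 1.10 and -8.34 to -6.48. The latter, of Ncr1, rest on the prior count. Gzmb, Nkg7, Klrb1c, Klrd1 and Il2rb had edgeR adjusted p values from 0.456 to 0.815, and Gzma, Prf1 and Eomes did not pass the filter (two-sided exact permutation p = 0.944, 0.365 and 0.167). By edgeR no member was a DEG, and 0.0297% of all genes were; by DESeq2 without shrinkage 1 member was. Of the other lists, 2 of 14 NK receptors (Il12rb2 and Cd244), 2 of 8 granule and effector genes (Ctsc and Srgn), 1 of 7 release genes (Vamp8), 3 of 14 adaptors and kinases and 2 of 15 ligands and cytokines (Il15 and Cd48) rose; none of the 5 transcription factors tested passed by edgeR (1 at an unadjusted p under 0.05, 1 by DESeq2; Ets1 rose without lymph node replicate 1), nor did any of the 3 granzyme inhibitors (0 and 0), and no gene of these lists fell, though Il18rap did without lymph node replicate 1.

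The 2 strains' BM IMs differed before any tumor. Reads of both strains were aligned to the same genome, mm10. How far sequence differences between the strains shaped counts compared between strains or models was not tested. Klrk1 was 3.83-fold higher (edgeR adjusted p = 0.00808) and Nkg7 4.46-fold lower (edgeR adjusted p = 0.00293) in DBA2 than in FVB BM IMs, so 2 of the 3 members tested changed, beside 21.1% of all genes, with 11.5% higher and 9.57% lower, and none was a DEG by edgeR, beside 0.403% of all genes, against 2 by DESeq2. Nkg7 lost its call when all 5 groups were fitted together (edgeR adjusted p = 0.141). Gzmb had a log2 fold change of -3.50 ± 1.5 (edgeR adjusted p = 0.13), and without DBA2 BM replicate 3 it was -9.34 and passed (edgeR adjusted p = 0.018). That -9.34 rests on the prior count, with DBA2 BM IMs then at 0. The other 7 members did not pass the filter and were at 0 in all DBA2 BM libraries; against the floor, Gzma was at least 91.7-fold lower in DBA2 and Ncr1 at least 29.3-fold, but for 6 of the 7 FVB BM replicate 3 was at 0 too. Without that library 7 members changed, Klrk1 up and Prf1, Gzma, Il2rb, Klrb1c, Ncr1 and Nkg7 down, but the share of all genes that changed also went from 21.1% to 36.4%, and without any other library it was 8.4% to 13.3%. A permutation of 3 against 3 libraries cannot give a two-sided exact p under 0.1.

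Of the other lists in this comparison, 2 of 11 NK receptors were higher in DBA2, Klra9 and Klrb1f, and Klra17 was lower. None of 6 granule and effector genes passed by edgeR (2 at an unadjusted p under 0.05, 1 by DESeq2), and none of 2 granzyme inhibitors (0 and 0). Rab27a was higher and Stx11 lower among 7 release genes, 3 of 13 adaptors and kinases were higher and 2 lower, and Tbx21, at 0 in DBA2 and 26 to 58 counts in FVB, was the 1 of 5 transcription factors that was lower (edgeR adjusted p = 0.0141). The adaptor Sh2d1b1 (EAT-2), which signals from Cd244, had 1167 to 1378 counts in DBA2 and 47 to 62 in FVB BM IMs (edgeR adjusted p = 1.68e-05). Of 13 ligands and cytokines 3 were higher, with H2-T23, the gene of Qa-1 that CD94 reads, at a log2 fold change of 2.35 ± 0.14, and H60b and Il15 were lower.

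Whether the rise from marrow to tumor differed between the models was tested directly, as the difference between primary tumor over FVB BM and LN4K1 lung over DBA2 BM. It differed for 7 of the 10 members, beside 26.5% of all genes: Klrk1 rose further in the LN2E1 model, by 2.43 ± 0.41 on the log2 scale (edgeR adjusted p = 0.000979). The marrow levels enter this difference, since Klrk1 was already 1.94 higher on the log2 scale in DBA2 than in FVB BM IMs. In primary tumor and LN4K1 lung TIMs Klrk1 stood at 84.3 and 61.9 CPM, with ranges that overlapped. Gzma, Prf1, Ncr1, Il2rb, Gzmb and Nkg7 went further up, or less far down, in the LN4K1 model (edgeR adjusted p from 0.000374 for Nkg7 to 0.0242 for Il2rb). For Nkg7 the difference was -4.42 ± 0.63, where DBA2 over FVB BM IMs was -2.16 on the log2 scale. For Gzma, Prf1, Ncr1 and Il2rb the difference has a size that rests on the 0 counts of DBA2 BM IMs. For Gzmb it was -4.15 ± 1.25 and rests on the 20 counts in DBA2 BM replicate 3. Without that library it was -9.90, a size that rests on the prior count. The calls of Gzmb and Il2rb were lost with all 5 groups in 1 fit (edgeR adjusted p = 0.0783 and 0.0598) and in 3 and 4 of 16 fits without a library. Klrb1c (0.0778), Klrd1 (0.429) and Eomes (0.131) did not pass. DBA2 BM IMs were at 0 for these members as well, so the sizes of their differences also rest on the prior count. The test compares changes from marrow, not levels in TIMs. In primary tumor and LN4K1 lung TIMs Klrd1 stood at 4.67 and 0.0755 CPM, Klrb1c at 2.78 and 0.357 CPM and Eomes at 0.116 and 0.189 CPM. By edgeR none of the members was a DEG here, beside 0.369% of all genes, and by DESeq2 5 were. Of the other lists, 1 of 23 NK receptors differed upward and 8 downward, 1 of 11 granule and effector genes upward and 1 downward, 2 of 7 release genes upward and 1 downward, 5 of 16 adaptors and kinases upward and 4 downward, 1 of 5 transcription factors each way, 3 of 16 ligands and cytokines upward and 1 downward, and none of 4 granzyme inhibitors by edgeR (2 at an unadjusted p under 0.05, 2 by DESeq2; Serpinb9b differed downward without LN4K1 replicate 3).

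Markers of other cells that the gate could hold also differed between the groups, not always in the order of the members. Summed CPM of 11 T cell genes was 1.37 to 5.34 in the BM groups, 10.3 to 29.2 in LN4K1 lung TIMs, 19.3 to 46.2 in primary tumor TIMs and 7.39 to 94.2 in lymph node TIMs. In LN2E1 TIMs Cd4, Cd8a and Cd8b1 made up most of this sum. Cd8a and Cd8b1 had 196 to 1730 and 236 to 3149 counts there, while Cd3e had 0 to 75. Lymph node replicate 3, with the highest sum, had 2814, 1730 and 3149 counts of Cd4, Cd8a and Cd8b1. It had 12, 13 and 34 counts of Cd3d, Cd3e and Cd3g. Of the T cell genes tested 5 of 10 rose and 1 fell in primary tumors, and 3 of 8 rose in lymph nodes. Over all genes tested 33.3% rose and 28.6% fell in primary tumors, and 20.2% rose in lymph nodes. In LN4K1 lung TIMs 4 of 9 rose, where 13.9% of all genes rose, and Cd3e had 31 to 142 counts. Between the strains' BM IMs 1 of 3 was lower in DBA2, where 9.57% of all genes tested were lower. There 6 of 7 basophil and mast cell genes and 4 of 7 neutrophil genes were lower too. Basophil and mast cell sums were 13.7 to 28.7 CPM in DBA2 against 234.7 to 284.6 CPM in FVB. Between the LN2E1 tissues 0 of 9 T cell genes passed by edgeR (0 at an unadjusted p under 0.05, 1 by DESeq2), beside 11.7% of all genes. Bcl11b fell there without lymph node replicate 1. The part of T cells in Gzma, Prf1 or Il2rb was not tested.

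Over all genes tested, 33.3%, 20.2% and 13.9% rose in primary tumor, lymph node and LN4K1 lung TIMs, and 28.6%, 17.2% and 11% fell. The counts that follow are to be read beside these shares. Plasmacytoid dendritic cell genes rose in all 3 TIM groups, 5 of 5 each. The 6 genes of type 1 and 2 innate lymphoid cells beyond the members summed to 101.6 to 308 CPM in primary tumor TIMs, of which Il1rl1 alone had a mean of 171 ± 87.1 CPM (SD, n = 5), to 21.7 to 96.3 CPM in lymph node TIMs and to 4.41 to 11.25 CPM in BM IMs and LN4K1 lung TIMs, and 4, 2 and 1 of them rose in primary tumor, lymph node and LN4K1 lung TIMs (3 in lymph nodes without replicate 1, and 2 in LN4K1 lungs without replicate 3). Neutrophil genes fell in TIMs, 6, 6 and 5 of 7 in primary tumor, lymph node and LN4K1 lung, with 1, 1 and 0 up, from 2582 to 4919 CPM summed in the BM groups to 43.8 to 828 CPM in TIMs. Nkg7, also highest in BM IMs of the FVB strain, fell in the same direction as most of these genes in LN2E1 TIMs. In LN4K1 lung TIMs it did not fall with them (log2 fold change 0.49, edgeR adjusted p = 0.46). Basophil and mast cell genes fell in primary tumor and LN4K1 lung TIMs, 5 and 2 of 7, and none of the 7 passed in lymph node TIMs by edgeR (0 at an unadjusted p under 0.05, 0 by DESeq2). Without lymph node replicate 1, which had 19864 counts of Prss34 where the other 4 had 0, Prss34, Mcpt8 and Cpa3 fell there, 3 of 7. Of the B cell genes Cd79b was the 1 that passed, falling in both LN2E1 TIM groups and none of the 2 tested passing in LN4K1 lung TIMs by edgeR (1 at an unadjusted p under 0.05, 1 by DESeq2). Of the monocyte and sort markers 4, 3 and 3 of 7 rose and 3, 3 and 2 fell in primary tumor, lymph node and LN4K1 lung TIMs, and Ly6c2 fell in all 3 by 0.88 to 1.30 on the log2 scale. The part of any of these cells in the members' counts was not tested.

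**Figure D4:**
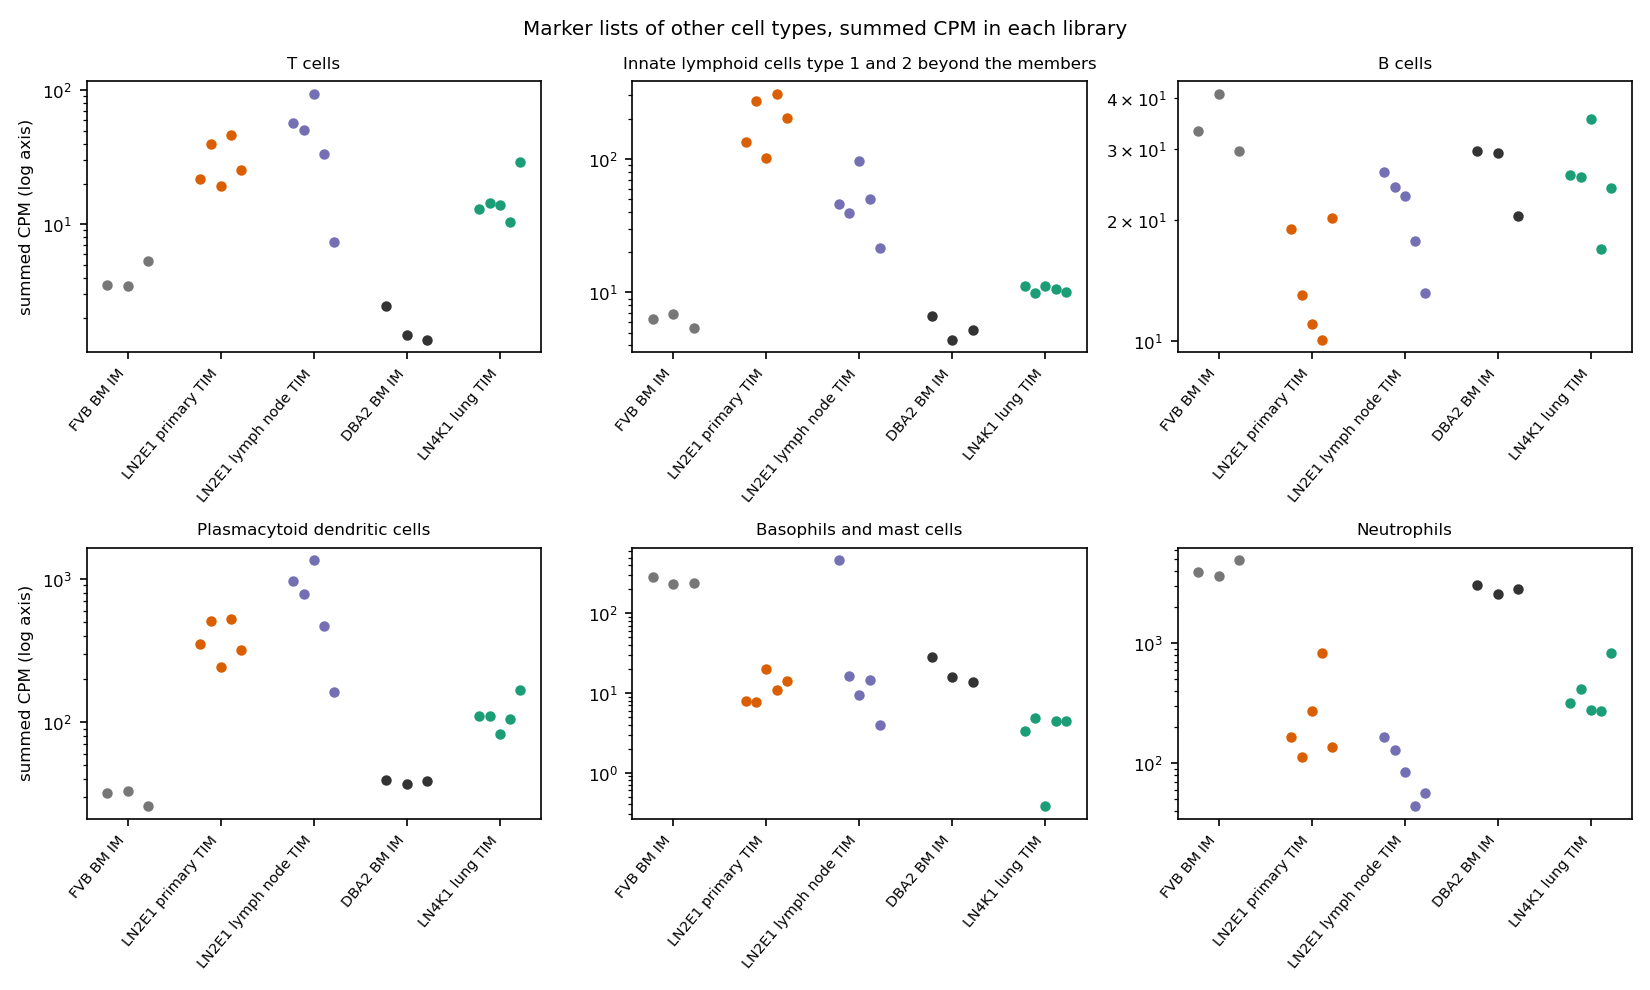
Summed CPM (logarithmic axis) of 6 marker lists of other cell types in each of the 21 libraries, by group. Sums of the T cell and of the plasmacytoid dendritic cell genes were higher in every TIM library than in every BM library. In LN2E1 TIMs the T cell sum was mostly Cd4, Cd8a and Cd8b1. Single T cell genes did not all rise: in primary tumor TIMs 5 of 10 tested rose and 1 fell, beside 33.3% and 28.6% of all genes. Lymph node replicate 1 stands apart in basophil and mast cell genes at 463.9 CPM.

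The genes whose profile over the 21 libraries was closest to the members' mean, by root mean square difference of centred log2 CPM among 15352 genes, were AI480653 (1.0), Slc27a1 (1.01), Klrb1a (1.03), Rnf149 (1.05) and Gm5150 (1.08), against a root mean square of 1.57 for the profile itself, so that none was close. Among the genes closest to Ncr1 were Ramp2 (1.18), Fasl (1.42), Gimap4 (1.46) and Klra7 (1.70), against 2.81 for the profile of Ncr1. Fasl, the ligand by which NK and T cells kill through Fas, had 15, 29 and 0 counts in FVB BM IMs, 0 in DBA2 BM IMs, 23 to 106 in LN4K1 lung TIMs, 0 to 27 in primary tumor TIMs and 0 in all lymph node TIMs. Klra7, an inhibitory Ly49 receptor, had 10 to 56 counts in LN4K1 lung TIMs and 0 to 2 in lymph node TIMs.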

How the data were processed

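RNA-seq of 21 libraries of sorted mouse IMs was analysed. The authors trimmed reads with BBDuk, aligned them to mm10 with BBMap and counted reads per gene with featureCounts; the count options are not given in the sources used here. The deposited values are raw counts per gene symbol, and the depth was 80772922 to 101043568 counts per library. Libraries were made from little RNA with a kit that does not keep strand. Groups followed the sample titles. All members and the 14 other gene lists were chosen with earlier results of these data known. Counts were scaled by TMM and tested in edgeR 4.0.16 (limma 3.58.1, R 4.3.3) by the robust quasi-likelihood test on the libraries of each comparison, after filterByExpr (at least 10 counts, total 15), with Benjamini-Hochberg adjustment over all genes tested. "Rose", "fell" and "changed" mean an adjusted p under 0.05. The SE was taken as the log2 fold change over the square root of F. Members that did not pass the filter had a two-sided exact permutation test of mean log2 CPM (prior count 2). Where every library of a group had 3 counts or fewer, fitted log2 fold changes rest on the prior count. For members such groups also gave bounds on folds. All members are named, and of each other list at most 2 genes that rose and 2 that fell furthest, with exceptions said to be chosen after their values were seen. Alternatives were DESeq2 1.42.0, DESeq2 size factors, other filters, all groups in 1 fit, a replicate block and leaving out each library; the ratios to Siglech and Klrb1b were added after the data were seen. The tests were checked on simulated data. Tables and exact tests used Python 3.11.15, pandas 2.3.3, numpy 2.4.6 and scipy 1.17.1. Sequences are from RefSeq (GRCm38.p6) and GENCODE transcripts, and gene positions from GENCODE vM21.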

Additional observations from a re-analysis of the deposited data

Results flagged for a closer look

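Of 28 sets of 5 libraries checked, 5 held a library far from the other 4. Chance gives about 1 in 20 for values that are spread normally. That rate does not hold for sets with libraries tied at 0, such as Prf1 in lymph nodes. Lymph node replicate 1 had 0.0121 CPM of Gzmb (1 count) where the other 4 had 318 to 1327 counts. Lymph node replicate 2 had 0.808 CPM of Prf1 and the other 4 none. Nkg7 was lowest in primary tumor replicate 1, at 0.463 CPM, and was at 0 CPM in lymph node replicate 5. Klrb1c was highest in primary tumor replicate 1, at 3.40 CPM.

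The change from marrow to tumor differed between the LN2E1 and LN4K1 models for 7 members by edgeR's test of the difference. The difference was taken on the log2 scale as primary tumor over FVB BM minus LN4K1 lung over DBA2 BM. The marrow groups already differed, with DBA2 over FVB at 1.94 for Klrk1 and -2.16 for Nkg7. The difference between models was 2.43 for Klrk1, -4.42 for Nkg7 and -4.15 for Gzmb. Without DBA2 BM replicate 3 it was -9.90 for Gzmb, a size that depends on the prior count. With all libraries the difference was -15.98 for Gzma, -11.60 for Prf1, -11.50 for Ncr1 and -8.40 for Il2rb. These sizes depend on the prior count because DBA2 BM IMs had no counts of these 4 genes.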

How the results depend on the processing

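Members that changed numbered 5 in primary tumor TIMs, 3 in lymph node TIMs, 7 in LN4K1 lung TIMs, 2 between LN2E1 tissues, 2 between strains and 7 in the difference between models. With at least 10 counts in every library they were 3, 1, 1, 1, 2 and 2, since fewer members could be tested. With all 5 groups in 1 fit they were 5 in lymph node TIMs and 5 between strains, and with DESeq2 6 and 7. DESeq2 size factors gave the same counts. Leaving out a library gave 5 to 6, 2 to 4, 6 to 8, 2, 2 to 7 and 5 to 8; between strains 7 changed without FVB BM replicate 3. Same-numbered libraries did not deviate together (correlations -0.10 to 0.057). These correlations cannot exclude shared mice or batches, and the labels give no pairing. With a replicate block 4 members changed in LN4K1 lung TIMs. In primary tumors the block cost Klrb1c its call (edgeR adjusted p = 0.0576) and gave Gzma one (0.047). No member was a DEG with the block. Directions turned for Ncr1 in primary tumors (0.053 with the block), Eomes in primary tumors (-1.07 with the block, -0.16 without FVB BM replicate 3, -0.53 without primary tumor replicate 1, up to 1.05 without FVB BM replicate 1), Il2rb in lymph nodes (-2.23, block), Gzmb between LN2E1 tissues (-0.11, block) and Klrd1 between models (0.27 without FVB BM replicate 2, -1.15 without FVB BM replicate 1), none of which had passed; the cause was not tested. Over all genes, calls went from 9025 to 5954 in primary tumor TIMs, 3389 to 1324 in LN4K1 lung TIMs and 1578 to 533 between LN2E1 tissues with the block, from 1578 to 3074 with DESeq2, and from 2719 to 1595 between strains with all groups in 1 fit (1115 to 4828 leaving out a library). Mean Nkg7 in FVB BM IMs was 25.1 CPM without TMM. Depth limits levels under about 0.03 CPM.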
